A study of Mus musculus with 26 samples.

Results

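The genes described here are those of DNA replication and of the passage from G1 into S phase, a list of 39 mouse genes chosen by name: the subunits of the MCM helicase, the factors that license and fire replication origins, the sliding clamp and its loader, the replicative polymerases and primases, the enzymes that join Okazaki fragments and supply nucleotides, and the E2F and cyclin E genes. The list was chosen with earlier results of these data known, so it is described without a test of the list. Of the 39, 38 were measured among 19505 named genes. Mcm7 was not analysed here. The study profiled cultured neural stem and progenitor cells from C57BL/6 mice on 26 one-colour arrays hybridised with biotin-labelled cRNA. It asked how these cells respond to dexamethasone (Dex, a synthetic glucocorticoid) with and without SOX2, a transcription factor of neural stem cells. All cultures were grown from the telencephalon in a medium with EGF and FGF-1, those of each animal kept apart. The labels call the tissue both fetal and postnatal day 0.

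The 4 groups were wild type (WT) in vehicle, WT in Dex, SOX2 knockout (KO) in vehicle and SOX2 KO in Dex. Cells at passage 3 received either 100 nM Dex or the ethanol vehicle for 4 h. The 6 WT cultures carry the numbers 1 to 6 and the 7 SOX2 KO cultures the numbers 7 to 13, and each gave 1 vehicle array and 1 Dex array. Both sexes were used, without a sex for each array, and how the knockout was made is not given in the sources used here.

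Before a cell divides, the origin recognition complex, CDC6 and CDT1 load the MCM2-7 helicase onto DNA in G1, and geminin keeps CDT1 from loading it again after S phase has begun. At the start of S phase CDC45 and the GINS complex activate the helicase, and DNA polymerases, primase, the PCNA clamp and the ligase copy both strands. Transcription of many of these genes rises in late G1, when E2F factors are released from the retinoblastoma protein, and neural stem cells in growth factor medium keep cycling through this programme.

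Words known as E2F sites were counted in the DNA around the transcription starts of these genes. RefSeq promoters, from 250 bases before to 50 after the transcription start (build GRCm38.p6), were held for 29 of the 38 measured genes, as 33 promoters. An E2F word was counted on either strand as any of TTTCCCGC, TTTCGCGC, TTTGCCGC and TTTGGCGC, or as GGCGGGA, which can overlap the first 4. One of the 4 longer words stood in 12 of the 33 promoters (36.4%), against 2.26% of 32851 promoters of all genes, and GGCGGGA in 9 (27.3%), against 11.3%. Either form was found in 17 promoters, 1 for each of 17 genes, which is 51.5% against 12.8% of all promoters. In 13 of the 17 genes such a word lay before the start. The first 3 sequences show the 250 bases before the promoter entry's start for Mcm5, its helicase partner Mcm6 and Cdc6. That start can differ from the annotated gene start. The Cdc6 window lies within the annotated gene, which begins at base 98907709, and the Mcm5 window ends within its gene, which begins at 75109468. The last 2 sequences show the words that lie just after the start of E2f2 and Cdt1. All are printed 5' to 3' on the gene's own strand, with E2F words in capitals, where words that overlap on the opposite strands run together.
Mcm5, chr8:75109259-75109508, plus strand: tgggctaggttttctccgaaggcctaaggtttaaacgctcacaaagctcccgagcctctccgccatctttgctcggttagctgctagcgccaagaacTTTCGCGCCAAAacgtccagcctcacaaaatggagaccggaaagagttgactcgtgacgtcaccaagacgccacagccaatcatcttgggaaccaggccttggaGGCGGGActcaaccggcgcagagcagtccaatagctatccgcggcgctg
Mcm6, chr1:128359706-128359955, minus strand: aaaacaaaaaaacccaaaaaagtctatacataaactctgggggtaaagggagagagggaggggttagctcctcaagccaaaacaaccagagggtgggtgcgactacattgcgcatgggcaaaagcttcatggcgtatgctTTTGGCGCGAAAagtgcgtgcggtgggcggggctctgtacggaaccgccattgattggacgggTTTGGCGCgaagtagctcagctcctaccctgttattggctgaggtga
Cdc6, chr11:98907901-98908150, plus strand: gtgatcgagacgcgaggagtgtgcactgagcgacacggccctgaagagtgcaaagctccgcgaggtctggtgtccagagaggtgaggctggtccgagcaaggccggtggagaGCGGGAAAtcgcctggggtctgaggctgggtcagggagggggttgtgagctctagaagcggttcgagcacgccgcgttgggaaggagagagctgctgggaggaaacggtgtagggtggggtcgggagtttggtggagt
E2f2, chr4:136172305-136172323, plus strand: gcatatagTTTGGCGCtaa
Cdt1, chr8:122568039-122568062, plus strand: actaccttTTTGGCGCcatggcgc
The helicase genes Mcm5 and Mcm6 held 3 matches each and Cdc6 held 1. The word of E2f2 begins 39 bases after the start and that of Cdt1 32 bases after it. Such a match is a description of letters, not a site of binding.

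Other words were searched on both strands. CCAAT stood in 18 of 33 (54.5%, against 37.4% of all promoters), the GC box GGGCGG in 23 (69.7%, against 35.7%) and the cell cycle word TTTGAA in 5 (15.2%, against 17.9%). The Sox word CATTGTT was in none of the 33, against 3.78% of all promoters, which says only that these letters are not in these windows. The word AGAACA, a single arm of the glucocorticoid receptor element, stood in 5 (15.2%, against 19.0%), those of Ccne1, Fen1, Pola2, Rfc3 and Rrm1.

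Some cultures stood apart, and the labels were checked first. Sox2 itself averaged 13.40 ± 0.70 (SD, n = 6) on the log2 scale in WT vehicle and 4.65 ± 0.51 (SD, n = 7) in SOX2 KO vehicle. The Dex targets Fkbp5 and Per1 were higher in Dex than in vehicle in 12 of the 13 cultures, while in WT culture 4 the differences were -2.03 and -2.74 on the log2 scale, opposite to the label. Whether the treatment labels of culture 4 are exchanged was not tested, so its arrays are called by their labels and the Dex results in WT and between genotypes are also given without them. The Dex array of SOX2 KO culture 12 had the lowest upper quartile of the 26 arrays, 9.38 against up to 10.43. Cultures were clustered on the profile of all genes, averaged over the 2 arrays of a culture after group means were removed. The tree was cut into 3 clusters by choice, a division without any counterpart in the labels. These were cultures 1, 2, 3, 7 and 8, then 4, 10 and 12, then 5, 6, 9, 11 and 13 (array clusters 1, 2 and 3). On every array of cluster 1 the upper quartile was 10.09 to 10.43, and on every other array 9.38 to 9.79. The cause of this division was not tested. Of 12 markers of neural stem and progenitor cells, 8 were above the array median on every array, and of 6 microglial and 7 endothelial or fibroblast markers none was. Markers of astrocytes (4 of 6), neurons (3 of 7) and the oligodendrocyte lineage (2 of 5) were also above the median on every array. Below it on every array were 5 of the 6 microglial and 5 of the 7 endothelial or fibroblast markers. Ptprc was above it on 8 arrays, Kdr on 4 and Col1a1 on 16.

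**Figure D1:**
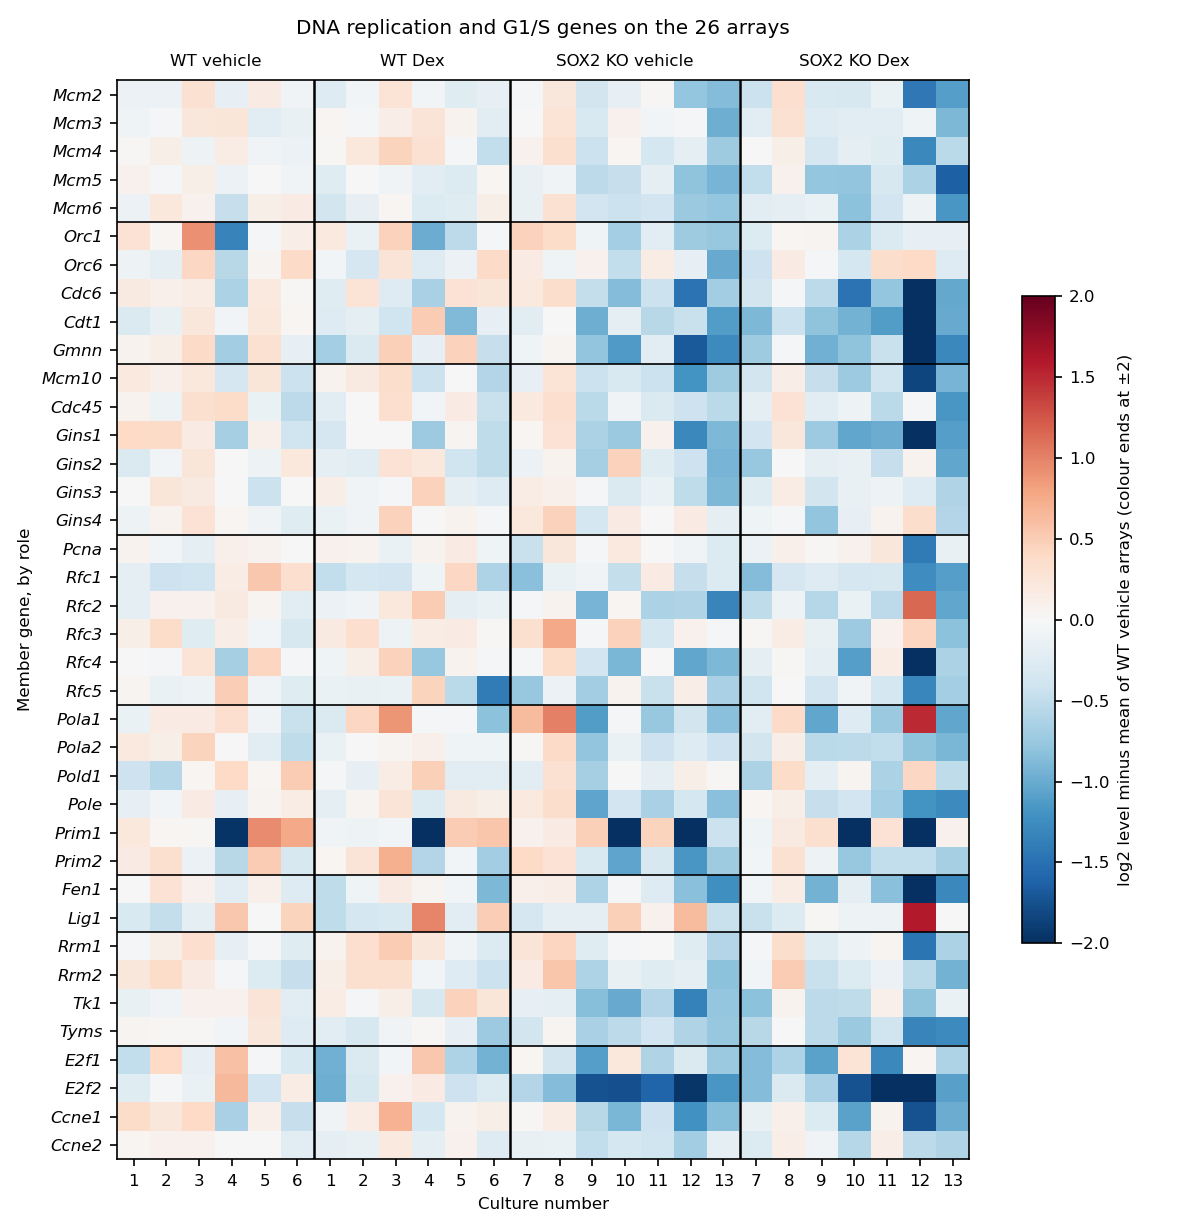
Log2 level of each of the 38 measured genes (rows, grouped by role) on each array (columns, numbered by culture), minus the mean of the 6 WT vehicle arrays. Blue is lower and red higher, the SOX2 KO columns 9 to 13 are mostly blue, and Prim1 is low in cultures 4, 10 and 12.

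Without SOX2, most replication genes had somewhat lower means, and 1 of them, E2f2, passed the test. In vehicle, 35 of the 38 genes had a lower mean in SOX2 KO than in WT, with a median log2 fold change of -0.35. Of all 19505 genes, 55.2% were lower and the median was -0.03. By limma at an adjusted p under 0.05, 1 of the 38 was lower and none higher, where 0.369% of all genes were lower and 0.190% higher. At an unadjusted p under 0.05, 6 of 38 were lower and 0 higher, beside 3.30% and 1.88% of all genes. Since these are bulk cultures, fewer cells in S phase and less RNA of these genes per cell cannot be told apart. Without culture 4, 35 of the 38 were lower (median -0.33, beside 57.7% of all genes) and 0 passed; without culture 12, 36 were lower (median -0.28, beside 52.9%) and 1 passed.

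The shift differed from culture to culture. The mean log2 level of the 38 genes was 10.92 ± 0.10 (SD, n = 6) in WT vehicle, between 10.79 and 11.05. In SOX2 KO vehicle it was 10.58 ± 0.32 (SD, n = 7), with 10.90 in culture 7, 11.09 in culture 8, 10.41 in culture 9, 10.56 in culture 10, 10.64 in culture 11, 10.29 in culture 12 and 10.20 in culture 13. Thus 5 of the 7 SOX2 KO cultures lay below every WT culture, culture 7 lay within the WT range and culture 8 above it. The genes were spread accordingly: culture 13 was the lowest of all 13 cultures for 15 of the 38 genes, culture 12 for 11 and culture 9 for 6, while culture 8 was the highest for 12. For 35 of the 38 genes the SD was larger among SOX2 KO than among WT cultures, which held for 55.4% of all genes.

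Array cluster moved with this result. Cultures 7 and 8 share a cluster with WT cultures 1, 2 and 3, and there the median difference of the 38 genes was 0.00 in vehicle, with 18 lower beside 45.4% of all genes. In the cluster of cultures 4, 10 and 12 the median was -0.35, with 31 lower beside 49.4% of all genes. In the cluster of cultures 5, 6, 9, 11 and 13 it was -0.49, with 37 lower beside 46.9%. With array cluster as a covariate in the fit of all genes, 35 of the 38 were lower in vehicle. Their median was -0.27, and 47.3% of all genes were lower. The clusters were formed from these same values. Errors and p-values of fits with this covariate can therefore be too small, and they are given as description.

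**Figure D2:**
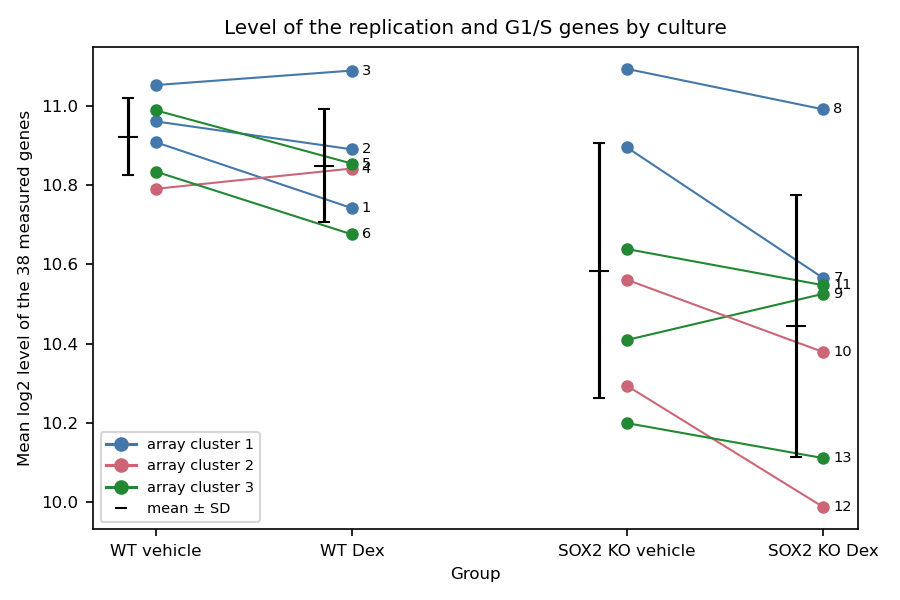
Mean log2 level of the 38 measured genes on each array, by group. Each line joins the vehicle and Dex arrays of 1 culture, numbered at its Dex point and coloured by array cluster, and black marks show mean ± SD; cultures 7 and 8 lie near the WT cultures and the other 5 SOX2 KO cultures below them in vehicle.

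Among the genes of G1/S control, all 4 had a lower mean in SOX2 KO vehicle. E2f2, an activating member of the E2F family that drives entry into S phase, ranged from 8.82 to 9.86 in WT vehicle with a median of 9.13. In SOX2 KO vehicle it ranged from 7.27 to 8.63 with a median of 7.61. Every SOX2 KO culture was below every WT culture, which held for 1 of the 38 genes and for 0.359% of all genes. E2f2 fell by 1.38 ± 0.33 on the log2 scale (limma, adjusted p = 0.0419). The size varied between clusters, from -0.59 in that of culture 1 to -1.38 in that of culture 5 and -2.50 in that of culture 4, which has 1 WT culture. With the array cluster as a covariate the adjusted p was 0.0265. The call was lost when any 1 of cultures 1, 2, 3, 4, 5, 6, 9, 10, 11 and 13 was left out, with adjusted p between 0.0634 and 0.129 (limma) and fold changes from -1.25 to -1.46.

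The other G1/S genes did not pass. Ccne2, which encodes 1 of the cyclin E proteins that activate CDK2, ranged from 11.23 to 11.52 in WT vehicle and from 10.74 to 11.31 in SOX2 KO vehicle, a difference of -0.34 ± 0.16 (limma, adjusted p = 0.924). Ccne1, the other cyclin E gene, differed by -0.54 ± 0.28. E2f1, another activating E2F, differed by -0.41 ± 0.27, at low levels of 5.09 to 6.96 over all arrays.

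The enzymes of nucleotide supply were lower in mean in 4 of 4 cases. Tk1, the thymidine kinase that salvages thymidine, ranged from 7.41 to 7.87 in WT vehicle (median 7.62) and from 6.26 to 7.46 in SOX2 KO vehicle (median 6.84). The groups overlapped through cultures 7 and 8 alone, at 7.46 and 7.42. The difference was -0.70 ± 0.20 (limma, adjusted p = 0.15), and it became -0.66 ± 0.17 with an adjusted p of 0.0425 once array cluster was a covariate. That fit, whose clusters came from these same values, called 2 of the 38 lower, Tk1 and E2f2, beside 0.964% of all genes lower and 0.964% higher. Tyms, which makes thymidylate, ranged from 12.07 to 12.55 (median 12.35) in WT and from 11.57 to 12.38 (median 11.80) in SOX2 KO. Only culture 8 of the SOX2 KO group, at 12.38, reached into the WT range, and the difference was -0.46 ± 0.20 (limma, adjusted p = 0.74). The ribonucleotide reductase subunits Rrm1 and Rrm2 differed by -0.06 ± 0.23 and -0.18 ± 0.23.

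**Figure D3:**
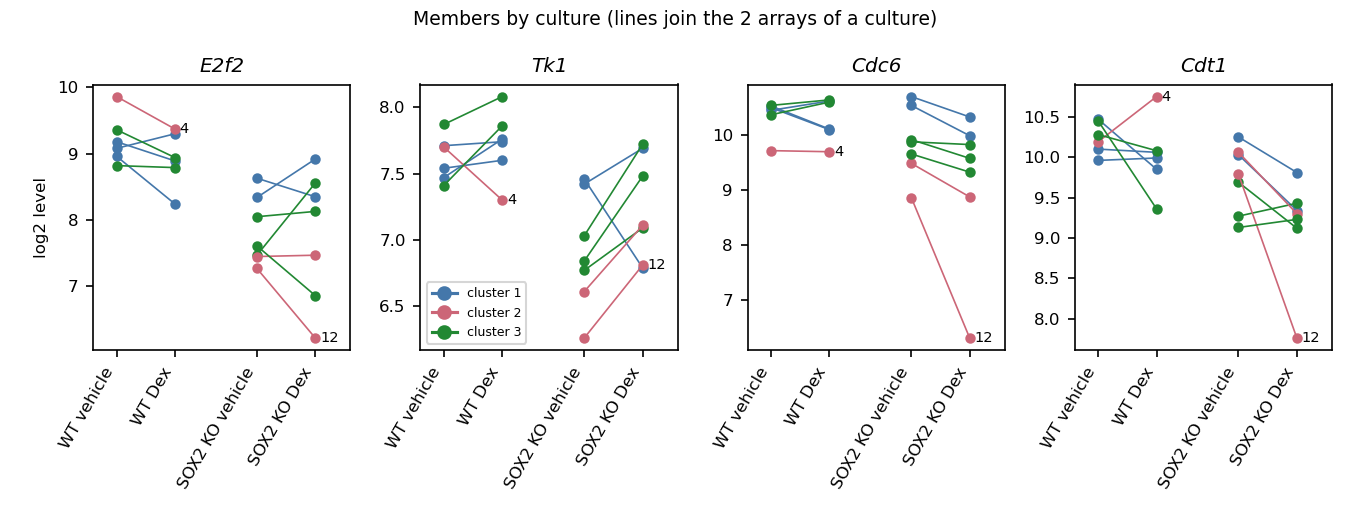
Log2 level of E2f2, Tk1, Cdc6 and Cdt1 in each culture, with lines joining the vehicle and Dex arrays and colours for array clusters; each panel has its own axis, and levels are not comparable between genes. E2f2 separates the genotypes in vehicle, and culture 12 falls far below the others in Dex for Cdc6 and Cdt1.

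Origin licensing genes also had lower means in 5 of 5 cases, with a median of -0.49. Gmnn encodes geminin, the inhibitor of CDT1. It ranged from 8.68 to 9.76 in WT vehicle and from 7.70 to 9.43 in SOX2 KO vehicle, with medians of 9.46 and 8.59. The ranges overlapped widely, with a difference of -0.73 ± 0.32 (limma, adjusted p = 0.775). The loading factors Cdt1 and Cdc6 differed by -0.50 ± 0.25 and -0.49 ± 0.41, and the origin recognition subunits Orc1 and Orc6 by -0.23 ± 0.28 and -0.20 ± 0.21.

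Of the MCM helicase, 5 of 5 measured subunits were lower in mean, between -0.45 and -0.14. Mcm5, whose promoter is printed above, was tightly held in WT vehicle, from 11.73 to 11.97, and ranged from 10.92 to 11.77 in SOX2 KO vehicle. Culture 8, at 11.77, was again the only SOX2 KO culture to reach into the WT range, and the difference was -0.45 ± 0.20 (limma, adjusted p = 0.845). Mcm6 differed by -0.37 ± 0.20, Mcm2 by -0.28 ± 0.23, Mcm4 by -0.17 ± 0.21 and Mcm3 by -0.14 ± 0.19.

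None of the genes that act at the fork passed the test. Among the 6 origin firing genes, 5 were lower, from -0.45 for Gins1 to -0.19 for Cdc45, and Gins4 was at 0.07. Among the clamp and its loader, Pcna differed by -0.05 ± 0.20, the loader subunits Rfc1, Rfc2, Rfc4 and Rfc5 by -0.49 to -0.30, and Rfc3 by 0.18. The 6 polymerase and primase genes were all lower in mean, from -0.59 for Prim1 to -0.09 for Pold1. The flap endonuclease gene Fen1 differed by -0.39 ± 0.29 and the ligase gene Lig1 by 0.00 ± 0.28.

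Prim1, the catalytic subunit of the primase, showed the largest spread and was singled out after its values were seen. On the 6 arrays of cultures 4, 10 and 12 it lay between 9.31 and 11.36, and on the other 20 arrays between 12.90 and 14.27. These cultures include 1 WT and 2 SOX2 KO cultures, and the level was low in them in both genotypes and under both treatments. It was the 1 gene of the 38 that set a cluster apart without overlap, while 7.03% of all genes did so for the same cluster. Since the clusters were formed from all genes, this is a description with no test. The Prim1 difference between genotypes in vehicle, -0.59 ± 0.65, was -0.27 ± 0.54 without culture 12 and -0.33 ± 0.21 with array cluster as a covariate. Prim2, its partner subunit, differed by -0.41 ± 0.27 between genotypes in vehicle.

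**Figure D4:**
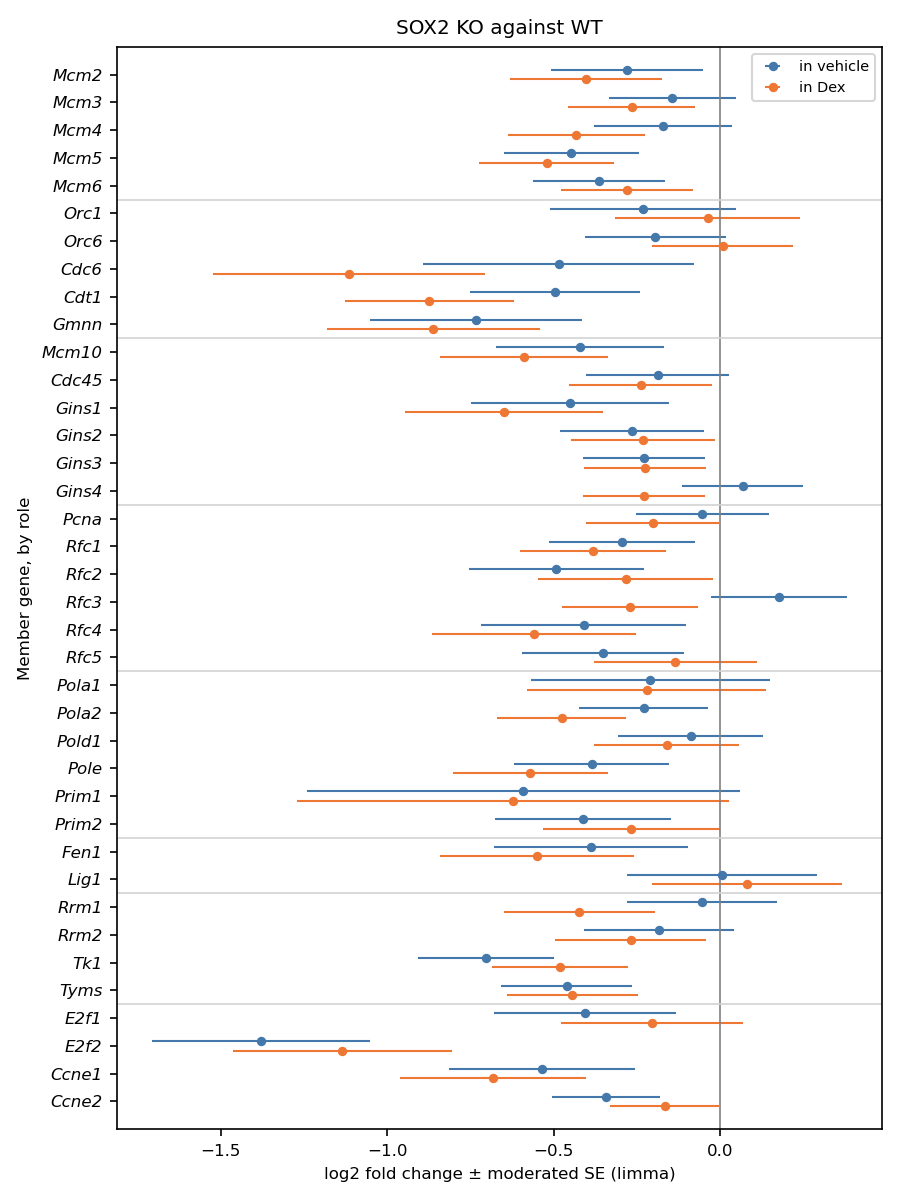
Log2 fold change of SOX2 KO against WT for each of the 38 genes, in vehicle (blue) and in Dex (orange), with moderated SE from limma. Nearly all points lie below 0, and E2f2 is the lowest of the 38 in both.

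The genotypes were compared again on the Dex arrays of the same cultures. There 36 of the 38 genes were lower in mean, with a median of -0.33, while 58.7% of all genes were lower with a median of -0.06. None of the 38 passed in limma, where 0.379% of all genes were lower and 0.185% higher at the threshold. At an unadjusted p under 0.05, 13 of the 38 were lower, beside 5.42% of all genes. With array cluster as a covariate none of the 38 passed either, beside 1.08% of all genes lower and 0.959% higher. None of the 38 was higher at an unadjusted p under 0.05, where 2.14% of all genes were. Without culture 4, 36 were lower (median -0.36, beside 60.7% of all genes), and without culture 12 also 36 (median -0.31, beside 60.4%). In no gene of the 38 did every SOX2 KO culture lie below every WT culture, which 0.292% of all genes showed. The mean level of the 38 was 10.85 ± 0.14 (SD, n = 6) in WT Dex and 10.44 ± 0.33 (SD, n = 7) in SOX2 KO Dex, and 6 of 7 SOX2 KO cultures were below every WT culture. Within the cluster of cultures 1, 2, 3, 7 and 8 the median difference was -0.11 with 32 lower. There 58.8% of all genes were lower, with a median of -0.055. For cultures 4, 10 and 12 it was -0.59 for the 38 genes, with 33 lower beside 48.5% of all genes. For the remaining 5 it was -0.34, with 36 lower beside 50.6%.

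The smallest p in Dex were those of E2f2, of 3 of the 5 licensing genes (Cdt1, Cdc6 and Gmnn) and of Mcm5, while Orc1 and Orc6 were at -0.04 ± 0.28 and 0.01 ± 0.21. E2f2 ranged from 8.24 to 9.37 in WT Dex (median 8.91) and from 6.22 to 8.92 in SOX2 KO Dex (median 8.13). Culture 8 of the SOX2 KO group reached the WT median, and the difference was -1.13 ± 0.33 (limma, adjusted p = 0.14). Cdt1 ranged from 9.36 to 10.75 in WT and from 7.76 to 9.81 in SOX2 KO, with medians of 10.03 and 9.30. The lowest value was that of culture 12. The difference was -0.87 ± 0.25 (limma, adjusted p = 0.148), and -0.64 ± 0.21 (adjusted p = 0.285) without culture 12.

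Cdc6 lay between 9.69 and 10.63 in WT Dex and between 6.31 and 10.32 in SOX2 KO Dex, with medians of 10.35 and 9.57. Culture 12 was lowest by far. The difference was -1.11 ± 0.41 (limma, adjusted p = 0.389) with all cultures and -0.64 ± 0.24 (adjusted p = 0.474) without culture 12. Gmnn ranged from 8.70 to 9.86 in WT Dex and from 6.86 to 9.33 in SOX2 KO Dex, with medians of 9.15 and 8.57, and differed by -0.86 ± 0.32 (limma, adjusted p = 0.405). Mcm5 ranged from 11.57 to 11.89 in WT Dex and from 10.22 to 11.94 in SOX2 KO Dex, and differed by -0.52 ± 0.20 (limma, adjusted p = 0.448). For both genes the SOX2 KO range reached further down and overlapped the WT range.

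After 4 h of Dex, none of these genes passed the test in either genotype. In WT, 23 of 38 were lower in Dex than in the vehicle array of the same culture, with a median of -0.05, and 49.0% of all genes were lower with a median of 0.00. In the paired limma fit none of the 38 passed, and none of all 19505 genes did (0%). At an unadjusted p under 0.05 there were 310 lower genes (1.59%) and 445 higher (2.28%), of which 1 was among the 38. Without culture 4, 31 genes were higher (0.159%) and 2 lower (0.0103%) at the threshold, none of them among the 38. The median of the 38 was then -0.06 with 26 lower, beside 49.0% of all genes. Gins1, Rfc5 and Prim1 were lower in 6 of 6 WT cultures, as were 2.11% of all genes. Without culture 4, Mcm6, Orc1 and Tyms were also lower in 5 of 5, which made 6 of 38 beside 4.96% of all genes, and Tk1 was higher in 5 of 5, as were 5.03% of all genes.

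E2f1 had the smallest p in WT. Its level was low, from 5.09 to 6.96 over all arrays, where the array medians were 6.44 to 6.84. Its Dex minus vehicle difference ranged from -0.69 to 0.11 with a median of -0.54. In 5 of 6 cultures it was lower in Dex, a mean of -0.39 ± 0.17 (limma, adjusted p = 0.998). Tyms was lower in 5 of 6 cultures, from -0.46 to 0.08, with a mean of -0.24 ± 0.13. Gins1, a subunit of the GINS complex, differed by -0.74 to -0.04 and by -0.25 ± 0.16 in the mean. The clamp loader subunits Rfc1 and Rfc5 averaged -0.26 ± 0.16 and -0.32 ± 0.21. Both rested partly on 1 culture, with the lowest differences of -0.95 and -1.16 against medians of -0.18 and -0.12. Without culture 4 the means were -0.46 ± 0.19 for E2f1 (limma, adjusted p = 0.974), -0.31 ± 0.15 for Tyms, -0.29 ± 0.18 for Gins1, -0.26 ± 0.18 for Rfc1 and -0.37 ± 0.23 for Rfc5, and again none passed.

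In SOX2 KO cultures, 29 of 38 genes were lower in Dex, with a median of -0.14, beside 54.5% of all genes and a median of -0.02. None of the 38 passed in limma, where 0% of all genes were lower and 0.0718% higher at the threshold. At an unadjusted p under 0.05, 5 of the 38 were lower and 1 higher, beside 6.47% and 3.70% of all genes. Without culture 12, 31 were lower with a median of -0.11, and 59.6% of all genes were lower. By culture, between 12 (culture 9) and 36 (culture 7) of the 38 genes were lower in Dex. The means of the 38 differed by 0.12 in culture 9 and by -0.33 in culture 7.

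Cdc6, which loads the helicase, was lower in 7 of 7 SOX2 KO cultures, between -2.55 and -0.05 with a median of -0.37. Culture 12 gave the lowest value. The mean was -0.69 ± 0.22 (limma, adjusted p = 0.341) with all 7 cultures and -0.38 ± 0.12 (adjusted p = 0.383) without culture 12. Gins1 was also lower in 7 of 7, between -1.08 and -0.06 with a median of -0.30, and averaged -0.45 ± 0.14 (limma, adjusted p = 0.342). These were 2 of the 38, and 1.49% of all genes were lower in 7 of 7.

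Cdt1 differed by -2.03 to 0.16 with a median of -0.57, and 5 of 7 SOX2 KO cultures were lower. Its mean was -0.60 ± 0.22 (limma, adjusted p = 0.397), and -0.37 ± 0.18 (adjusted p = 0.623) without culture 12. Fen1, which removes the flaps of Okazaki fragments, averaged -0.38 ± 0.16 and -0.22 ± 0.13 without culture 12. Rfc1 averaged -0.34 ± 0.15 and was lower in 6 of 7. In the other direction, Tk1 was higher in 6 of 7 SOX2 KO cultures, from -0.67 in culture 7 to 0.69, with a mean of 0.33 ± 0.15 (limma, adjusted p = 0.482).

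**Figure D5:**
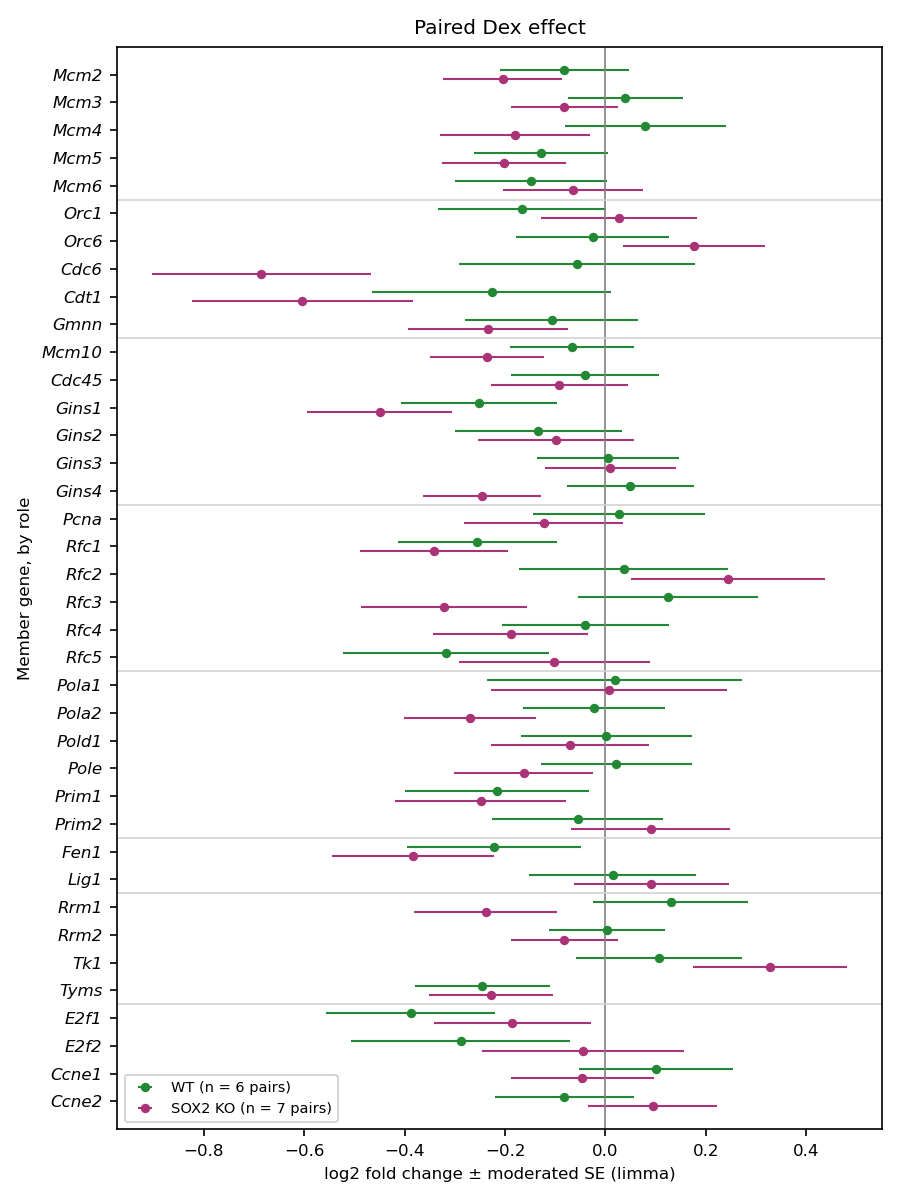
Paired Dex minus vehicle log2 fold change of each of the 38 genes in WT (green, 6 pairs) and SOX2 KO (purple, 7 pairs), with moderated SE from limma. Most points lie within 0.4 of 0, with Cdc6, Cdt1 and Gins1 lowest in SOX2 KO and E2f1 lowest in WT.

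The response to Dex was then compared between the genotypes. None of the 38 passed in limma, and none of all genes did (0%), and at an unadjusted p under 0.05 none of the 38 did either, beside 255 genes with a higher (1.31%) and 433 with a lower difference (2.22%). In 24 of the 38 the SOX2 KO effect was the lower, beside 55.2% of all genes, with a median difference of -0.08 (all genes -0.03). The smallest p was that of Cdc6, with a SOX2 KO minus WT difference of -0.63 ± 0.32 (limma, adjusted p = 0.999), and of -0.32 ± 0.17 without culture 12. The next were Rfc3 with -0.45 ± 0.24, Rrm1 with -0.37 ± 0.21, Gins4 with -0.30 ± 0.17 and Pola2, a subunit of polymerase alpha, with -0.25 ± 0.19. In Rfc3, Dex minus vehicle ranged from -0.03 to 0.34 in WT and from -1.19 to 0.44 in SOX2 KO, with medians of 0.10 and -0.30. In Rrm1 they ran from -0.05 to 0.38 and from -1.23 to 0.04, with medians of 0.13 and -0.07. In Gins4 they ran from -0.14 to 0.22 and from -0.50 to 0.19, and in Pola2 from -0.39 to 0.43 and from -0.55 to 0.25. The ranges of the genotypes overlapped for each of these genes. Without culture 4, the SOX2 KO effect was the lower in 23 of the 38, beside 55.2% of all genes. The median difference of the 38 was then -0.07, and none passed. Without culture 12, 3 of the 38 reached an unadjusted p under 0.05, beside 3.12% of all genes lower and 1.38% higher, and none passed after adjustment: Rfc3 (-0.56 ± 0.23), Gins4 (-0.37 ± 0.15) and Rfc5 (0.44 ± 0.20). Rrm1 was then at -0.20 ± 0.14.

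Other genes of the cell cycle were set beside these. Of 65 further replication and G1/S genes, such as the RPA subunits, E2f8 and Uhrf1, 54 were lower in SOX2 KO in vehicle with a median of -0.23 and 55 in Dex with a median of -0.28. In these fits 55.2% of all genes were lower in vehicle and 58.7% in Dex. None of the 65 passed in either, where 0.369% of all genes were called lower in vehicle and 0.379% in Dex. Of 28 genes listed for mitosis, 24 were lower in vehicle and 25 in Dex, with medians of -0.10 and -0.24, and none passed. Of 11 D cyclins, their kinases and CDK inhibitors, 3 were lower in vehicle with a median of 0.20 and 6 in Dex with a median of -0.03, and none passed. With array cluster as a covariate the difference of these lists in vehicle was smaller: 43 of the 65 were lower (median -0.07) and 15 of the 28 mitosis genes (median -0.03), while 35 of the 38 were lower (median -0.27). In that fit 47.3% of all genes were lower in vehicle. It called 1 of the 65 lower in vehicle, where 0.964% of all genes were called lower. This was E2f8 (-0.67 ± 0.15, limma, adjusted p = 0.0116), a repressing member of the E2F family. In Dex, 44 of the 65 were lower (median -0.18), beside 52.4% of all genes. Of the 65, 1 passed, the polymerase delta subunit Pold3 (-0.58 ± 0.14, limma, adjusted p = 0.0272), where 1.08% of all genes were called lower. In Dex 23 of the 28 mitosis genes were lower (median -0.15), with none past the threshold. Vehicle and Dex comparisons use different arrays of the same cultures, so their values are not independent of each other.

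A few cell type markers also differed between the genotypes. Among 12 neural stem and progenitor markers Sox2 alone passed in vehicle and in Dex, where 0.369% and 0.379% of all genes were called lower. In SOX2 KO vehicle 8 of the 12 had higher means and 4 lower, and in SOX2 KO Dex 5 higher and 7 lower. Of all genes 55.2% were lower in vehicle and 58.7% in Dex. Without Sox2, the mean level of the other 11 was 11.72 to 12.26 in WT vehicle and 11.85 to 12.32 in SOX2 KO vehicle. Of the 6 astrocyte markers Aldoc passed in vehicle (-1.71), and their mean level ranged from 9.91 to 11.86 in WT and from 10.07 to 11.83 in SOX2 KO vehicle. Of the 7 neuronal markers Syt1 passed in vehicle (-1.59), with mean levels of 8.49 to 9.27 and 8.32 to 8.95. In Dex 1 of the 6 astrocyte and 1 of the 7 neuronal markers passed, both lower. Of 5 oligodendrocyte lineage markers 3 were higher and 2 lower in vehicle, 1 was higher and 4 lower in Dex, and none passed. With array cluster as a covariate 1 of these 5 was called higher in vehicle, as were 0.964% of all genes. The part of these markers in the lower replication genes was not tested.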

How the data were processed

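Processed values of 26 arrays were used. The authors deposited 1 table of values between 2.22 and 19.81, taken here as log2 expression from the values themselves; the base and the authors' normalization are not given in the sources used here. Of 22206 transcript clusters, 19572 carry 1 gene symbol (matched by Entrez identifier), 2634 carry none and 0 several. For 55 genes with more than 1, that of highest mean was kept, which left 19505 genes.

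Groups were compared with limma 3.58.1 in R 4.3.3 (lmFit, eBayes, Benjamini-Hochberg over all genes, adjusted p threshold 0.05, no minimum fold). Genotype contrasts came from 4 group means on 26 arrays, and Dex contrasts from a fit with culture as a block. The labels number the same biological sample in vehicle and Dex. Profiles of same-numbered arrays, less group means, correlated at 0.31 to 0.73, and 22 of 26 arrays matched their own number best. Errors are moderated standard errors (SE) of fold changes and standard deviations (SD) of levels. The number of arrays limits the precision. The p-values of genotype contrasts use the spread of arrays within the 4 groups, with both arrays of a culture counted as independent. Those of Dex contrasts use the spread of the paired differences between cultures. Scripts were tested on simulated data.

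The 39 genes, the other lists and the alternatives were chosen with earlier results of these data known, so lists are described by counts and medians, with no test. Values by sample are given for genes past the threshold and for the 5 of smallest p in each contrast; Sox2, Fkbp5 and Per1 are named as checks. Prim1 was added after its values were seen. Alternatives changed the scaling (median or quantile), the filter on low genes, the prior, the array weights, the array cluster, the block and the cultures included; 0 columns belonged to no sample.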

Additional observations from a re-analysis of the deposited data

Results flagged for a closer look

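In groups of 6 or 7 cultures, a value was picked out where the highest or lowest lay far from its neighbour for the range of the group. Of 240 groups of values 26 were picked out (10.8%), 16 in culture 12 and 5 in culture 4. The rule picks out about 1 in 20 of independent groups. These groups share the same arrays and cultures, so their share cannot be held against that rate.

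In levels on the log2 scale, SOX2 KO Dex culture 12 was lowest in Cdc6 (6.31, median of the others 9.70), Cdt1 (7.76 against 9.32) and Pcna (15.61 against 17.08), and highest in Rfc2 (11.42 against 9.75) and Lig1 (10.87 against 9.19). Culture 4 was lowest in Cdc6 in WT vehicle (9.71 against 10.49) and in Prim1 in WT vehicle (11.36 against 13.54) and WT Dex (11.21 against 13.27). Gins3 was lowest in WT vehicle culture 5 (8.37), Ccne2 in WT vehicle culture 6 (11.23), and Gins4 was highest in WT Dex culture 3 (11.26).

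In Dex minus vehicle, culture 12 was lowest of the SOX2 KO cultures in Mcm4 (-1.11), Cdc6 (-2.55), Cdt1 (-2.03), Pcna (-1.34), Rfc4 (-1.22), Rfc5 (-1.44), Prim1 (-1.52), Fen1 (-1.38) and Rrm1 (-1.23), and highest in Rfc2 (1.76) and Pola1 (1.87). Tk1 was lowest in SOX2 KO culture 7 (-0.67) and Rfc1 in WT culture 6 (-0.95). Fkbp5 (-2.03) and Per1 (-2.74) were lowest in WT culture 4. The cause of none of these was tested.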

How the results depend on the processing

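The median fold change of the 38 genes kept its sign in SOX2 KO against WT under every alternative fit, from -0.40 to -0.26 in vehicle and from -0.41 to -0.23 in Dex. These fits join all array clusters. Within array cluster 1 alone the vehicle median was 0.005, with 18 of the 38 lower beside 45.4% of all genes. The count of genes past the threshold in vehicle, 1 at first, became 0 under quantile normalization (E2f2 adjusted p = 0.0621, limma) and without cultures 4 and 12 (adjusted p = 0.0724), 2 when array cluster was added to the model, and between 0 and 1 when each culture was left out. In Dex, 0 became 1 with array weights (Cdt1, -0.64). The mean of the 2 arrays of a culture, which joins vehicle and Dex and so is a comparison in neither, called 1 (E2f2, -1.26). Culture as a random replicate block left these counts at 1 and 0, and Dex fits with no replicate block gave 0 of the 38 in both genotypes. Counts of all genes past the threshold in vehicle moved from 37 higher and 72 lower to 188 and 188 with array cluster. The clusters were themselves formed from these values. For the difference of the Dex effects the median of the 38 ran from -0.12 to 0.01. For Dex against vehicle in each genotype, and for the difference of these effects, 0 of the 38 passed in every alternative run. Leaving out cultures 4 and 12, or the Dex array of 12, was chosen after seeing the data. The number of cultures limits what small differences could be detected.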
